A study of Homo sapiens with 39 samples.

Results

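Raising TRIM37 for 1 day in a single inducible RPE1 clone was compared with leaving the same clone uninduced. The cells were hTERT-RPE1, a human retinal pigment epithelial line immortalised with telomerase, carrying an inducible TetOn-TRIM37 and known in the labels as clone 4. Doxycycline at 1 µM for 24 h gave 3 libraries, and the same clone with no drug gave the other 3. The members are the genes to which the authors' table of this contrast gives the Status OK, which are 12153 of 23710 genes and are called measured here. A second clone of the same construct, clone 5, had the same treatment with 3 libraries in each group. A comparison of 9 RPE1 TRIM37 knockout libraries with 9 of RPE1 wild type, all without doxycycline, is used beside it. Each TetOn line is 1 clone, and no doxycycline-treated RPE1 cells without TetOn-TRIM37 are among the libraries used here, so an effect of the drug and an effect of TRIM37 cannot be told apart. No source used here says that the replicates were separate cultures, so the q values may measure technical spread only. No value per library was analysed here, the depth is unknown, and the spread between libraries enters through the authors' standard error (SE) alone.

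TRIM37 is a ubiquitin ligase of the tripartite motif family, with a RING domain that passes ubiquitin to substrates. It is known for restraining the assembly of pericentriolar material around centrosomes, and cells with much TRIM37 are known to be sensitive to inhibitors of PLK4, the kinase that starts centriole duplication. In cells without centrosomes, 53BP1 and the deubiquitinase USP28 activate p53 after a prolonged mitosis. Excess TRIM37 is of interest because its gene lies in a region that some tumours amplify, and the series asks how its dose shapes gene expression.

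The label of the line was set beside 22 genes of retinal pigment epithelium. The visual cycle genes RPE65 and RLBP1, the pigment genes TYR, TYRP1, DCT and PMEL, BEST1, TTR, SERPINF1, CLDN19, CDH1 and CDH3 lay at or under the count limit of 10, so 12 of the 22 were not measured. The epithelial keratin genes KRT8 and KRT18 had mean counts of 11700 and 10700 in the authors' deposited table, and the pigment cell transcription factor genes MITF and OTX2 had 1100 and 583. Of the 10 measured markers 0 were called, with 1 at an unadjusted p under 0.05. Of 16 fibroblast and mesenchymal markers 10 were measured and 1, VIM, was called up, against 0.716% of all measured genes. Of 18 neuroblastoma markers 14 lay under the limit and 0 of the 4 measured were called, with 0 at an unadjusted p under 0.05. At the edge of the count limit, YJEFN3, TRPM3, FRMD3 and GPRASP1 were measured at a mean count of 10.0 in the authors' deposited table, while KLRG1 at 9.99 and SNORD4A at 10.0 were not.

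TRIM37 was raised strongly and few other genes moved. Its log2 fold change was 3.19, SE 0.0441, with a q printed as 0 in the authors' deposited table, or 9.13-fold. With a mean count of 19800 over the 6 libraries in the authors' deposited table and groups of equal weight, this implies mean counts of 3911 without and 35689 with doxycycline. In bulk RNA a rise in every cell and a larger rise in part of the cells cannot be told apart. The file does not name the numerator of the ratio. Its direction was set by the rise of TRIM37, which is therefore no check on swapped groups. At a q under 0.05 the call covered 237 genes, which is 1.95% of those measured. Of these, 87 rose (0.716%) and 150 fell (1.23%). The median log2 fold change of all measured genes was 0.0016.

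Most called changes were small. The median log2 fold change was 0.22 over the 87 called rises and -0.22 over the 150 called falls. A change of at least 1.2-fold was reached by 29 called rises and 46 called falls, and a change of at least 1.5-fold by 6 and 2. A 2-fold change was reached by 2 genes, TRIM37 and C21orf91, both rises. The 41 called genes with mean counts above 10000 were 10.5% of the 389 measured genes at that level, while 3 of 1340 were called between 10 and 50. The SE was never above 0.204 at any mean count, and the plot of fold change against mean count shows how little low-count genes spread around 0. Whether the authors moderated their fold changes is not stated in the sources used here.

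**Figure D1:**
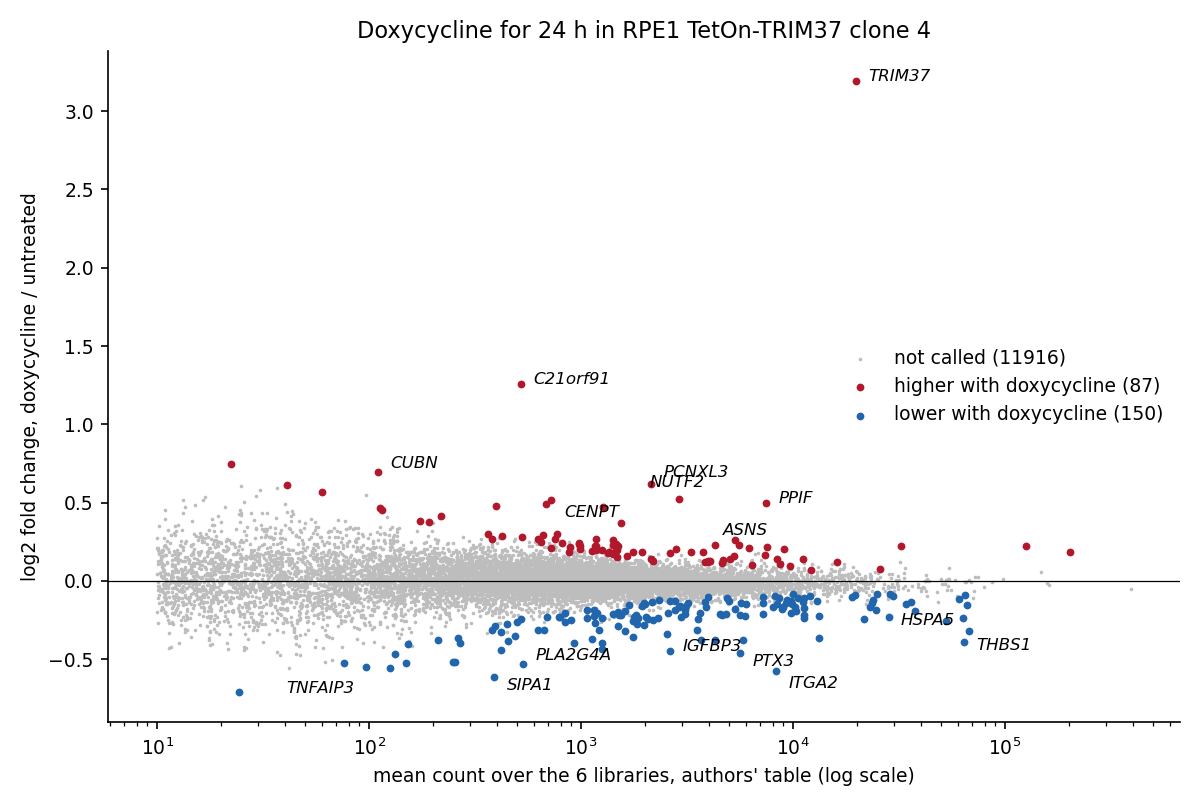
Log2 fold change (doxycycline over untreated, vertical axis) of the 12153 measured genes against the authors' mean count over the 6 libraries (horizontal log axis), with 87 called rises in red, 150 called falls in blue and the rest in grey. TRIM37 at 3.19 and C21orf91 at 1.26 stand above all other called genes, which lie between -0.71 and 0.75.

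The largest rises after TRIM37 included genes of protein folding, chromosome attachment and nuclear transport. C21orf91 followed with a log2 fold change of 1.26, SE 0.0747 in the authors' deposited table, which implies mean counts of 306 untreated and 734 treated. CUBN, which encodes the endocytic receptor cubilin, rose by 0.70, SE 0.135 in the authors' deposited table, from an implied 84.0 to 136. PPIF encodes the mitochondrial peptidyl-prolyl isomerase cyclophilin D, a regulator of the permeability transition pore, and rose by 0.50, SE 0.051 in the authors' deposited table. NUTF2, which encodes the carrier that returns Ran to the nucleus, rose by 0.52, SE 0.0505, and the inner kinetochore gene CENPT by 0.51, SE 0.0628 in the authors' deposited table. PCNXL3, a member of the pecanex family, rose by 0.62, SE 0.0559 in the authors' deposited table.

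The next rises were of similar size or smaller. By the authors' deposited table the pluripotency and epithelial transcription factor gene KLF4 stood at 0.57, SE 0.162, the neuronal membrane protein gene SLITRK5 at 0.49, SE 0.0608, and the interferon-inducible gene SAMD9L at 0.48, SE 0.0778. CERS5, which encodes a ceramide synthase, stood at 0.47, SE 0.0465 in the authors' deposited table, followed by ZBED3 at 0.46, LAGE3 at 0.42 and the cardiac transcription factor gene NKX2-5 at 0.39. KLF4 (60.0) and ZBED3 (113) had low mean counts in the authors' deposited table. OVCA2 (0.75) and TMEM121 (0.61) rose further in the authors' deposited table but had mean counts of 22.4 and 40.9, below the minimum of 50 set for naming. With the statistics divided by their central spread of 1.10, KLF4, ZBED3 and NKX2-5 lost their calls (adjusted p = 0.0939, 0.115 and 0.0785), as did OVCA2 and TMEM121 (adjusted p = 0.0579 and 0.123).

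A pair of the most abundant messages rose by a small amount. VIM, which encodes the intermediate filament protein vimentin, stood at 0.19, SE 0.0431 with a mean count of 203000 in the authors' deposited table. PKM, the gene of the glycolytic enzyme pyruvate kinase, stood at 0.22, SE 0.0333 with a mean count of 126000 in the authors' deposited table. GAPDH, EEF1A1, ACTG1 and ACTB, the other 4 of the 5 highest with VIM, were at -0.054, -0.025, -0.012 and 0.057 per the authors' deposited table and were not called.

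The called falls included genes of surface receptors, secreted proteins and signalling enzymes. The call with the smallest nonzero q was ITGA2, which encodes the alpha chain of a collagen-binding integrin, with a log2 fold change of -0.57, SE 0.0412 and a q of 1.44e-40 in the authors' deposited table. Its implied mean counts were 9930 untreated and 6670 treated. The secreted innate immunity protein gene PTX3 fell by 0.46, SE 0.0364, and IGFBP3, which encodes a binding protein of insulin-like growth factors, by 0.45, SE 0.0354 in the authors' deposited table. THBS1, the gene of the matrix protein thrombospondin, fell by 0.39, SE 0.0386 in the authors' deposited table at an implied 72781 untreated and 55619 treated. BMP2, which encodes a bone morphogenetic protein, was at -0.52, SE 0.113 and the ephrin gene EFNB2 at -0.43, SE 0.0711 in the authors' deposited table. SIPA1, a gene of a Rap GTPase activator, had the largest called fall above that minimum, -0.61, SE 0.0891 in the authors' deposited table.

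Signalling and membrane genes made up much of the rest of the 15 largest falls. TNFAIP3, the gene of a deubiquitinase that limits NF-kB signalling, was at -0.55, SE 0.129, and NR1H3, which encodes the nuclear receptor LXR alpha, at -0.55, SE 0.137 in the authors' deposited table. The phospholipase gene PLA2G4A, whose product releases arachidonic acid, was at -0.53, SE 0.07 in the authors' deposited table. In the same authors' deposited table the glutamate receptor gene GRIN2A, the transporter gene ABCA13 and the adhesion receptor gene LPHN2 were at -0.52 each. The transcription factor gene EGR3 was at -0.46, the potassium channel gene KCNJ2 at -0.44 and the phosphatase gene DUSP10 at -0.40 in the authors' deposited table. RRAD had the lowest value of all, -0.71, in the authors' deposited table, at a mean count of 24.4. GRIN2A and RRAD lost their calls under the rescaled statistics (adjusted p = 0.123 and 0.0657).

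The called genes were then read through lists of pathways and cell components, with the share of called members set beside that of all 12153 measured genes. Across the 44 lists, 56 genes other than TRIM37 were called. Among these 44 lists the highest shares of called members were those of the integrated stress genes for rises and of the integrins and proteases for falls. The plot of shares by list also holds families picked later, of which the cadherins had 28.6% and the guidance genes 21.4% called down. Members of a list are not independent of each other, so the counts are descriptions.

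**Figure D2:**
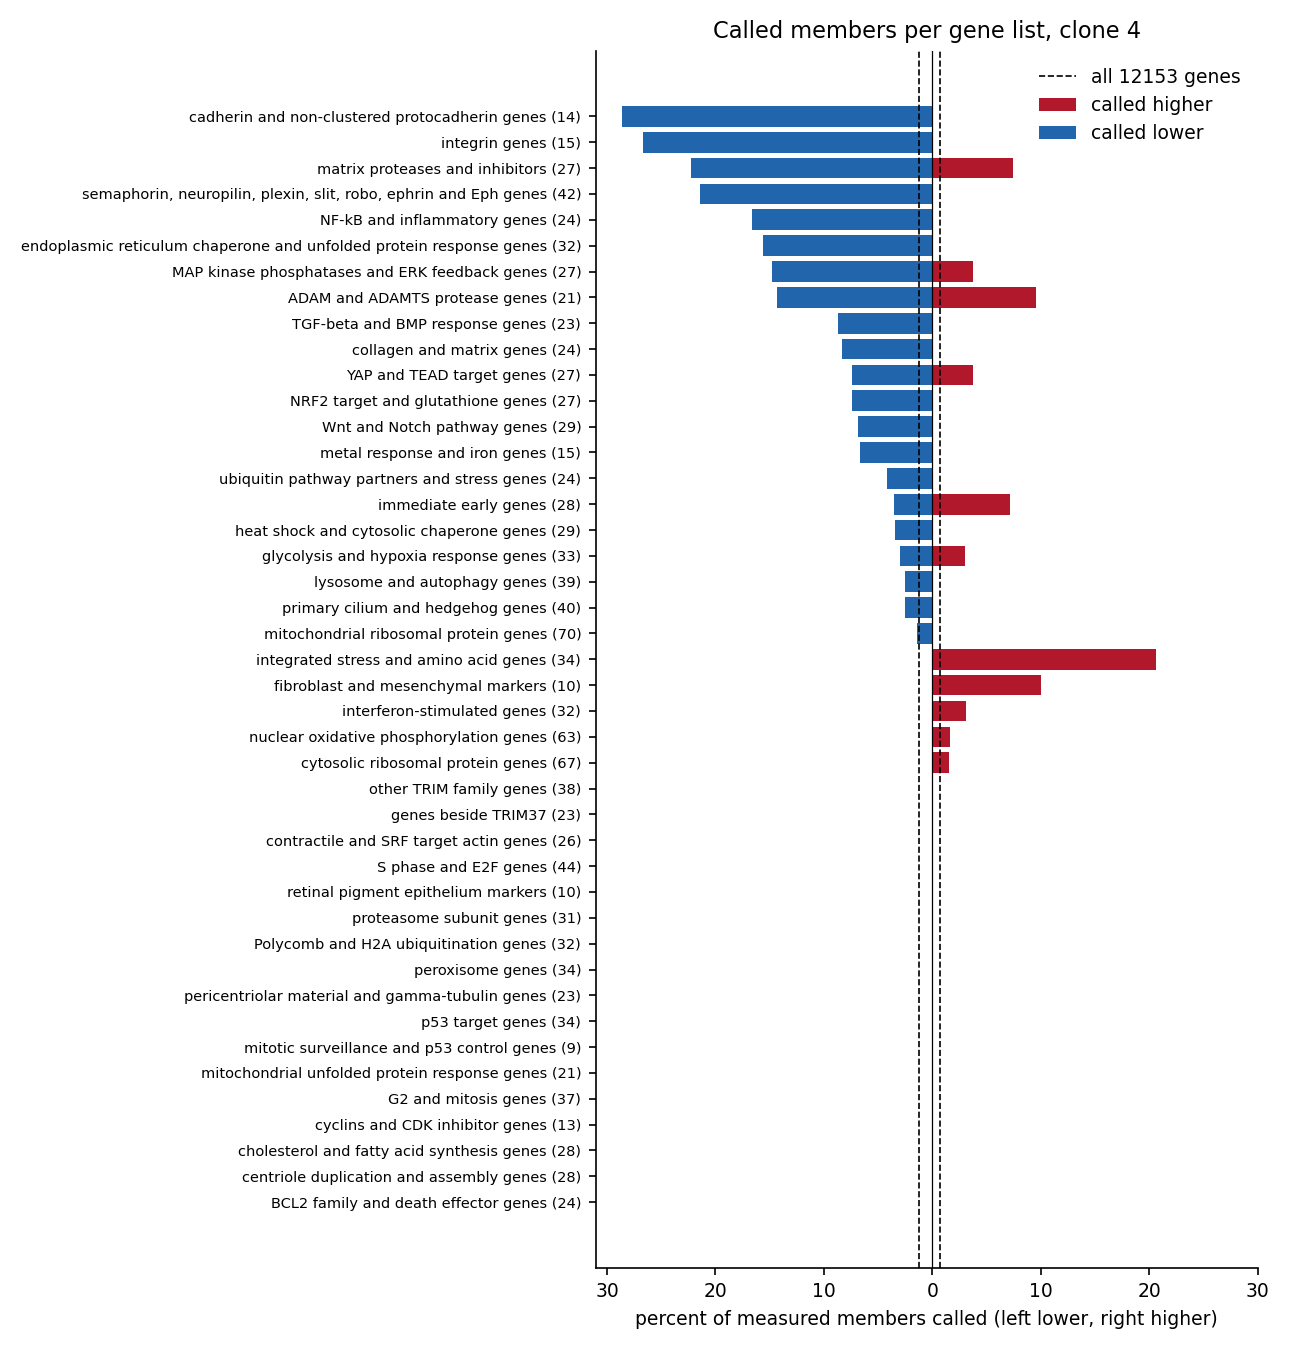
Percent of the measured members of each gene list that were called higher (red, to the right) or lower (blue, to the left) with doxycycline, with the number measured in brackets. Dashed lines mark the shares over all 12153 genes, 0.716% and 1.23%, against 20.6% called higher for the integrated stress list and 26.7% called lower for the integrins.

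In the integrated stress response 7 measured genes rose and 0 fell. In this pathway phosphorylation of eIF2 slows translation in general but favours that of ATF4, a transcription factor that turns on amino acid synthesis, transport and tRNA charging. The 7 were 20.6% of 34 measured members, against 0.716% of all genes, and 29 of the 34 lay above 0 with a median log2 fold change of 0.12. ATF4 itself was at 0.21, SE 0.0395, and its partner CEBPG at 0.19, SE 0.0537 in the authors' deposited table. ASNS, which makes asparagine, was at 0.23, SE 0.0299 with a q of 1.89e-11 in the authors' deposited table, and PSAT1, an enzyme of serine synthesis, at 0.22, SE 0.0366. The amino acid transporter chain gene SLC3A2 was at 0.21, SE 0.0599, and the tRNA synthetase genes CARS and GARS at 0.18, SE 0.044 and 0.14, SE 0.0334 per the authors' deposited table. CHAC1 had the highest value of the list, 0.55, SE 0.171, in the authors' deposited table but was not called. CEBPG and SLC3A2 lost their calls once the statistics were divided by their central spread (adjusted p = 0.074 and 0.0947).

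Some members lay below 0, and 4 others were not measured for their Status. ATF3 was at -0.12 and ALDH18A1 at -0.051 in the authors' deposited table. DDIT4, SLC38A2, SLC1A5 and SLC7A5 carried the Status Outlier, which sets the q to 1, with log2 fold changes of -0.13, -0.011, 0.19 and 0.20 in the authors' deposited table. In clone 5 the list had 1 called rise and 1 called fall of 35 measured members and a median of -0.0014. Over all genes clone 5 called 0.795% up and 2.17% down. ASNS and PSAT1 were Outlier there, at -0.032 and -0.0054 in the authors' deposited table, so their difference between the clones was not tested. Of the 31 members measured in both clones, 0 differed between them at an adjusted p under 0.05. At an unadjusted p under 0.05 there were 11, all higher in clone 4, which is 35.5% of the list against 5.75% of all genes. The nearest to passing were GARS (adjusted p = 0.0518) and SLC3A2 (adjusted p = 0.0704).

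The promoter of ASNS is shown because it holds the letters that ATF4 and C/EBP proteins are known to bind. The sequence is the 250 bases before the RefSeq gene start at chr7:97872409-97872658 on the minus strand of GRCh38.p14, printed 5′ to 3′, with the match to TGATGNAA in capitals.
ASNS: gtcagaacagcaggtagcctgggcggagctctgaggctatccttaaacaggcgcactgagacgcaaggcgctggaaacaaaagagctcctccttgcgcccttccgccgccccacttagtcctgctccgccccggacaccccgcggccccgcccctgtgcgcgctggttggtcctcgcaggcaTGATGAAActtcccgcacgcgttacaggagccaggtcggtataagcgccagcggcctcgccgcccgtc
The match starts 68 bases before the gene start. Both strands of the same window were searched in 27305 RefSeq promoters, and 3.19% held it, as did 1.35% of the 9710 promoters matched to genes measured in clone 4. Among list members it was found in 4 of 29 matched promoters (ATF3, CHAC1, ASNS and AARS) and in 1 of the 7 called genes. A match is a description of letters and not evidence of binding in these cells.

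Among genes of folding in the endoplasmic reticulum 5 fell, each by a small amount. These chaperones and their cofactors are known targets of the unfolded protein response, an answer to misfolded protein in the reticulum that runs through ATF6, XBP1 and PERK. The 5 were 15.6% of 32 measured members, against 1.23% of all genes called down, 0 were called up, 28 lay below 0, and the median log2 fold change was -0.057. HSPA5, the gene of the main chaperone BiP, was at -0.23, SE 0.0263 with a q of 3.82e-15 in the authors' deposited table, an implied 30424 untreated and 25976 treated. DNAJC3, a cochaperone gene, was at -0.15, SE 0.039, and HSP90B1, which encodes GRP94, at -0.12, SE 0.0316 in the authors' deposited table. The chaperone gene HYOU1 was at -0.11, SE 0.026, and the disulfide isomerase gene PDIA4 at -0.096, SE 0.0257 in the authors' deposited table. In clone 5, 7 of 32 members were called down and 0 up, against 2.17% of all its genes called down. The median there was -0.069, with HSPA5 at -0.24 in the authors' deposited table. Between the clones 0 of the 32 members differed at an adjusted p under 0.05 and 1 at an unadjusted p under 0.05. HSP90B1 lost its call in clone 4 under the rescaled statistics (adjusted p = 0.0507).

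The promoters of HSPA5 and HSP90B1 are shown because both hold the reticulum stress element, in which CCAAT and CCACG stand 9 bases apart. The windows are the 250 bases before the RefSeq gene starts of GRCh38.p14, chr9:125241344-125241593 on the minus strand and chr12:103930160-103930409 on the plus strand, printed 5′ to 3′ with the matches on either strand in capitals.
HSPA5: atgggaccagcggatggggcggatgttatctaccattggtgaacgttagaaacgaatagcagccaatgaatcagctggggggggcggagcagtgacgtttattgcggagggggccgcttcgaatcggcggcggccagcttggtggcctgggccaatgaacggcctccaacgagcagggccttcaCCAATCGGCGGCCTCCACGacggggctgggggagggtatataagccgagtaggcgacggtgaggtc
HSP90B1: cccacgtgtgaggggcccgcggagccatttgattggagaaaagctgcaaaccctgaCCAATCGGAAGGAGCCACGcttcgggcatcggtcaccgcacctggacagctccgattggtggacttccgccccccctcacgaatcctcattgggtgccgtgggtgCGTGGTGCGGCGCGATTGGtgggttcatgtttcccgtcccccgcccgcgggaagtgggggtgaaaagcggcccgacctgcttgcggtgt
HSPA5 held 1 match and HSP90B1 held 2, of which the first in the printed run reads forward and the other is the reverse complement. Of the 27305 promoters 22 held the element (0.0806%), as did 0.144% of the 9710 of measured genes. Among list members it was found in 6 of 29 matched promoters (HSPA5, HSP90B1, XBP1, CALR, CANX and CRELD2), 2 of them among the 5 called genes.

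**Figure D3:**
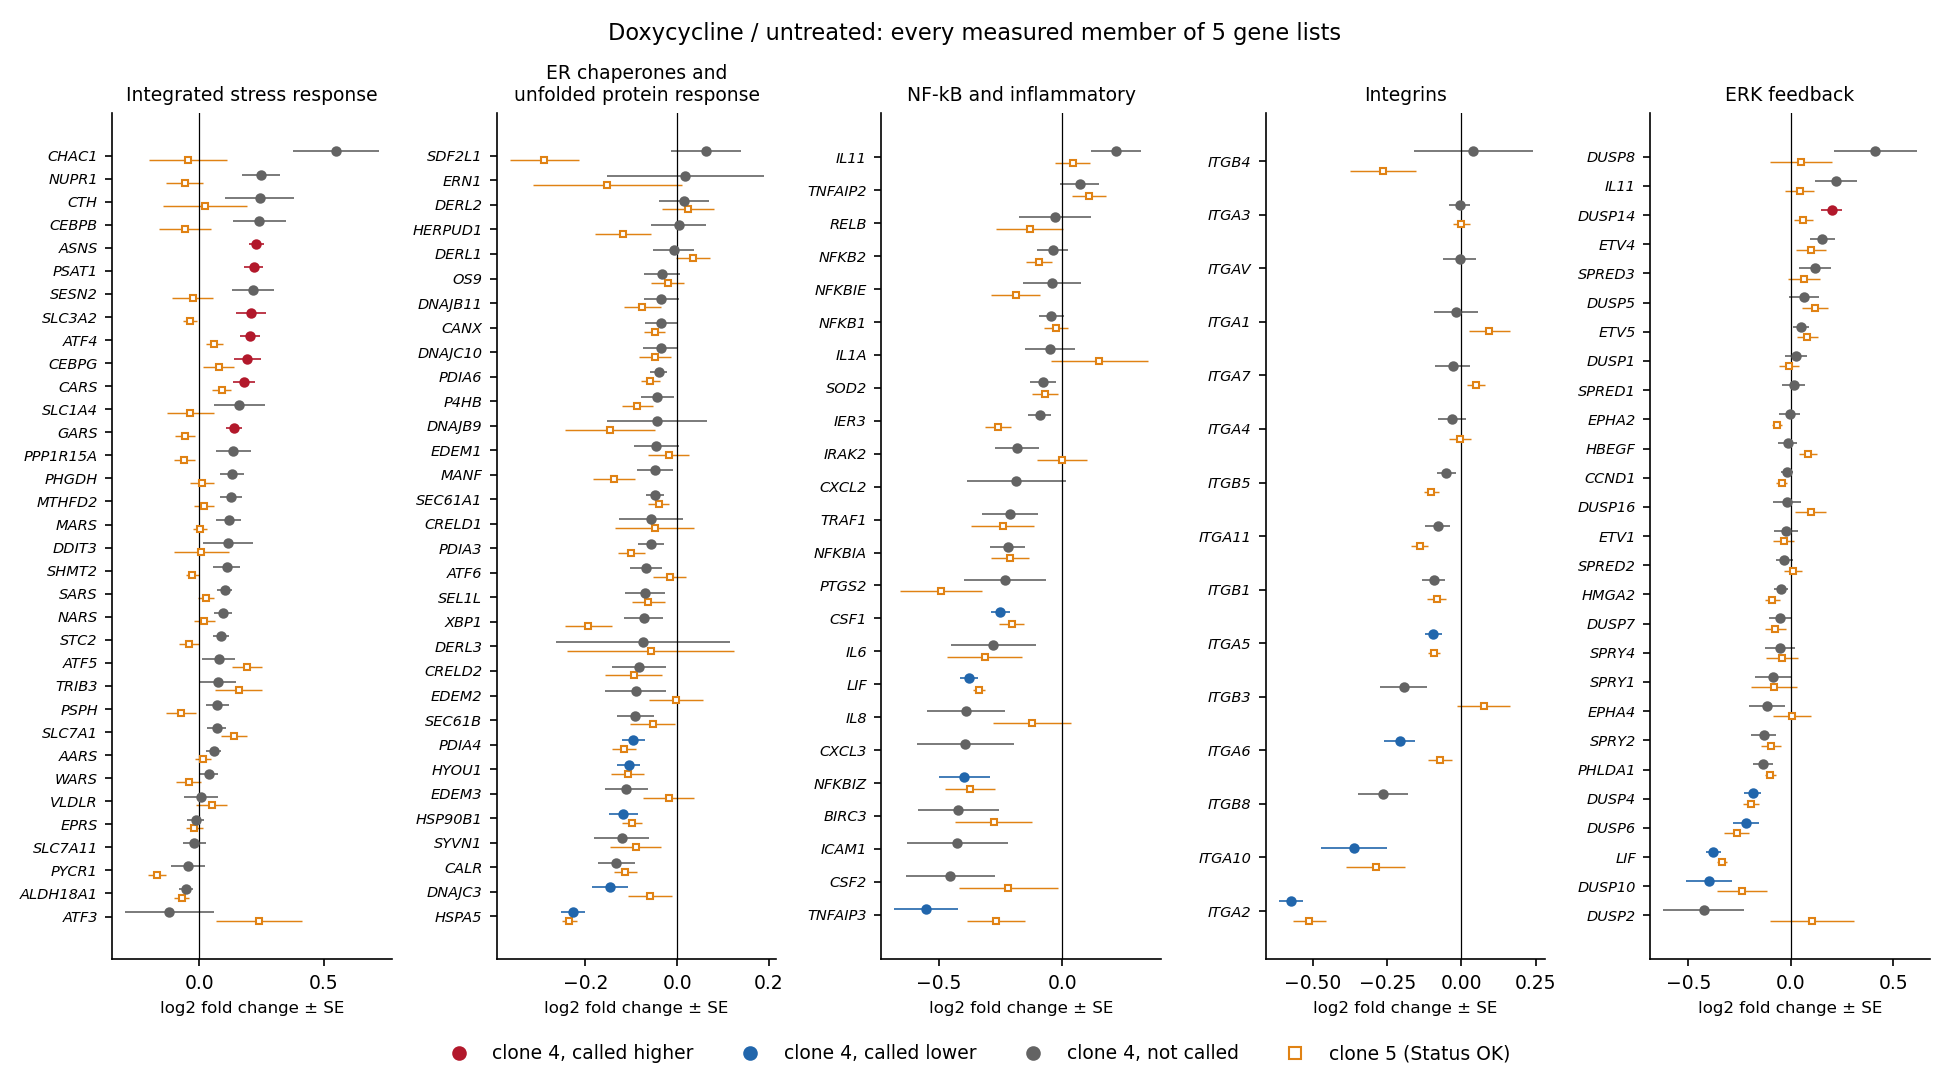
Log2 fold change ± SE (horizontal axes) of every measured member of 5 gene lists in clone 4 (circles: red called higher, blue called lower, grey not called) and clone 5 (open orange squares, where measured). Integrated stress members lie mostly right of 0 in clone 4, while 28 of 32 reticulum members and 22 of 24 NF-kB members lie left of it.

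Of 24 measured NF-kB and inflammatory genes 4 fell (16.7%) and 0 rose, against 1.23% of all genes called down. Of the 24, 22 lay below 0, and their median log2 fold change was -0.22, against 0.0016 over all genes. TNFAIP3 has been given above, and NFKBIZ, which encodes another modulator of NF-kB, was at -0.40, SE 0.103 in the authors' deposited table. The cytokine genes LIF and CSF1 were at -0.38, SE 0.0378 and -0.25, SE 0.0388 per the authors' deposited table. IL1B carried the Status Outlier at -0.38 in the authors' deposited table. Clone 5 gave 4 called falls and 0 rises of 22, with a median of -0.20, against 2.17% of all its genes called down. Between the clones 0 of 21 members differed, with 1 at an unadjusted p under 0.05.

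Adhesion receptors and matrix proteases also had called falls. Of the 15 integrin chain genes 4 were called down (26.7%) and 0 up, against 1.23% of all genes called down, and 14 lay below 0. Besides ITGA2 these were ITGA10 at -0.36, SE 0.11, the laminin receptor chain gene ITGA6 at -0.21, SE 0.0531 and the fibronectin receptor chain gene ITGA5 at -0.095, SE 0.028 in the authors' deposited table. ITGA10 had a q of 0.049 in the authors' deposited table, and both it and ITGA5 lost their calls under the rescaled statistics (adjusted p = 0.127 and 0.104). Among 27 matrix proteases and inhibitors 6 were called down (22.2%) and 2 up (7.41%), against 1.23% and 0.716% of all genes. MMP14, the membrane protease that activates gelatinase, was at -0.26, SE 0.0347 with a mean count of 52500 in the authors' deposited table. ADAMTS12 at -0.22, ADAMTS1 at -0.21, ADAM19 at -0.18, the inhibitor gene SERPINE2 at -0.15 and the urokinase gene PLAU at -0.14 completed the falls in the authors' deposited table, of which PLAU lost its call under the rescaled statistics (adjusted p = 0.113). The rises were of ADAM9 at 0.22, SE 0.0397, and ADAMTS6 at 0.23, SE 0.0629 in the authors' deposited table, the latter lost under the rescaled statistics (adjusted p = 0.0568). Clone 5 had 4 called falls of 13 integrin genes and 11 called falls of 27 protease genes, with 0 called rises in either list. Over all genes clone 5 called 2.17% down. ADAM9 carried the Status Outlier in clone 5, at 0.24, SE 0.0484 in the authors' deposited table, and could not be called there. SERPINE2 was the protease list member that differed between clones, at -0.15 in clone 4 and -0.33 in clone 5 in the authors' deposited tables (adjusted p = 0.0394).

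Feedback genes of the ERK pathway gave 4 called falls (14.8%) and 1 rise (3.70%) of 27, against 1.23% and 0.716% of all genes. The phosphatase genes DUSP6 and DUSP4 were at -0.22, SE 0.0635 and -0.19, SE 0.0413 per the authors' deposited table, DUSP10 and LIF have been given, and DUSP14 rose by 0.20, SE 0.0497. DUSP6 and DUSP10 lost their calls under the rescaled statistics (adjusted p = 0.0939 and 0.074). The median of the list was -0.025, close to that of all genes. Among 28 immediate early genes, which answer growth factors within minutes, KLF4 and KLF2 (0.27, SE 0.0772 in the authors' deposited table) were called up and EGR3 down. These were 7.14% up and 3.57% down, beside the same shares of all genes. All of these calls were lost under the rescaled statistics (adjusted p = 0.0939, 0.105 and 0.0536).

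The matrix, TGF-beta, YAP and Wnt lists had 2 called falls each, against 1.23% of all genes called down. Of 24 measured collagen and matrix genes 2 were called (8.33%), both down, THBS1 and the lysyl oxidase gene LOXL2 at -0.12, SE 0.0323 in the authors' deposited table. Another 10 genes of this list, among them FN1, VCAN and HSPG2, carried the Status Outlier and could not be called. TGF-beta and BMP response genes gave 2 falls of 23 (8.70%), BMP2 and TGFBI (-0.11, SE 0.024 in the authors' deposited table). Another 5 genes of this list, TGFB1, BMPR2, BHLHE40, PMEPA1 and LTBP3, carried the Status Outlier and could not be called. Of these BHLHE40 (-0.42), PMEPA1 (-0.30) and LTBP3 (-0.25) in the authors' deposited table would have passed had they been adjusted with the rest. YAP and TEAD targets gave 2 falls, IGFBP3 and TGFBI (7.41%), and 1 rise of 27, the LIM protein gene AJUBA at 0.18, SE 0.0395 in the authors' deposited table. The Wnt and Notch list gave 2 falls of 29 (6.90%), the secreted Wnt antagonist gene SFRP1 at -0.24, SE 0.0366 and the Wnt receptor gene FZD4 at -0.21, SE 0.056 per the authors' deposited table, the latter lost under the rescaled statistics (adjusted p = 0.0568). HHIP, the gene of a hedgehog-binding inhibitor, was the single call of 40 cilium and hedgehog genes, at -0.37, SE 0.0493 in the authors' deposited table.

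Further families were picked after their members were seen among the called genes, and their counts are no test. Axon guidance genes, which steer cells and growing axons, gave 9 falls and 0 rises of 42 measured semaphorin, neuropilin, plexin, slit, robo, ephrin and Eph genes, with 1.23% of all genes called down. They were EFNB2, SLIT2 (-0.38), SEMA3D (-0.35), SEMA5A (-0.32), SEMA7A (-0.22), NRP2 (-0.22), EPHB6 (-0.21), NRP1 (-0.17) and SEMA3A (-0.17) in the authors' deposited table. Cadherins and non-clustered protocadherins, which hold cells together, gave 4 falls and 0 rises of 14, against the same 1.23%. The falls were PCDHGC3 (-0.28), CDH6 (-0.24), CDH10 (-0.24) and PCDH10 (-0.22) in the authors' deposited table. PCDHGC3 is a clustered gamma protocadherin that was counted here all the same, so the falls include a gene outside the family as named. SEMA3D, NRP2, EPHB6 and CDH10 lost their calls under the rescaled statistics (adjusted p = 0.125, 0.0782, 0.0989 and 0.125). Clone 5 had 7 falls of 44 guidance genes and 4 falls of 14 cadherin genes, with 0 called rises in either, against 2.17% of all its genes called down. ADAM and ADAMTS protease genes, whose called members are given above with the proteases, went both ways in clone 4. They gave 3 falls (14.3%) and 2 rises (9.52%) of 21, against 1.23% and 0.716% of all genes. In clone 5 they gave 3 falls and 0 rises of 20, but ADAM9 carried the Status Outlier there and could not be called.

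Further called genes, chosen after their values were seen, are given by the role of their products. Among surface and secreted proteins TGM2, which encodes a protein-crosslinking transglutaminase, was at -0.32, SE 0.0394 with a mean count of 67900 in the authors' deposited table. CD44, the hyaluronan receptor gene, was at -0.19, SE 0.0259, and CAV1, which encodes the coat protein of caveolae, at -0.18, SE 0.0251 in the authors' deposited table. The growth factor gene GDF6 was at -0.34, SE 0.0534 and the protease inhibitor gene TFPI2 at -0.24, SE 0.0355 per the authors' deposited table. EFEMP1, a matrix glycoprotein gene, was at -0.20, SE 0.0466, and ANXA2, of the membrane-binding annexins, at -0.086, SE 0.0209 in the authors' deposited table. Surface proteins also rose, with EGFR, the epidermal growth factor receptor gene, at 0.19, SE 0.053 and PVR, the poliovirus receptor gene, at 0.23, SE 0.0305 in the authors' deposited table. EGFR lost its call under the rescaled statistics (adjusted p = 0.0911).

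Enzymes and transporters were called in both directions. ALDH1A3, which makes retinoic acid, was at -0.36, SE 0.0343 with a mean count of 13200 in the authors' deposited table, and the phosphate transporter gene SLC20A1 at -0.24, SE 0.0346. PDE5A, which breaks down cyclic GMP, was at -0.36, SE 0.0745, and the fucosyltransferase gene FUT8 at -0.21, SE 0.034 in the authors' deposited table. PFKFB4, which sets the level of a glycolytic activator, was at -0.37, SE 0.0793 in the authors' deposited table. The mitochondrial carrier gene SLC25A36 rose by 0.37, SE 0.0492, and UGCG, which makes glucosylceramide, by 0.21, SE 0.0366 in the authors' deposited table. PCK2, the mitochondrial form of phosphoenolpyruvate carboxykinase, was at 0.22, SE 0.0632 in the authors' deposited table and lost its call under the rescaled statistics (adjusted p = 0.0829) and after correction for GC content (adjusted p = 0.0846).

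Signalling and cytoskeletal genes made up a further group. FBXO32, which encodes the ubiquitin ligase subunit atrogin, was at -0.39, SE 0.0701, and IRS1, the insulin receptor substrate gene, at -0.19, SE 0.0503 in the authors' deposited table. WWTR1, which encodes the YAP homologue TAZ, was at -0.22, SE 0.0395 in the authors' deposited table. The sphingosine receptor gene S1PR3 was at -0.31, SE 0.0542, and DPYSL3, a regulator of the cytoskeleton in neurons, at -0.24, SE 0.0247 in the authors' deposited table. DOCK1, an activator of the GTPase Rac, rose by 0.26, SE 0.0414, the kinase gene TNIK by 0.27, SE 0.0471 and the protein kinase C gene PRKCD by 0.29, SE 0.0614 in the authors' deposited table. ERRFI1, an inhibitor of EGFR, was at 0.10, SE 0.0289, and MAP4, a microtubule-associated protein gene, at 0.12, SE 0.0244 in the authors' deposited table. All of these but PFKFB4, UGCG and PCK2 were also called in clone 5 with the same sign. ERRFI1 lost its clone 4 call under the rescaled statistics (adjusted p = 0.0939).

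The genes closest to the known work of TRIM37 were not called. Among centriole duplication genes 0 of 28 were called in the authors' DESeq2 result, with 1 at an unadjusted p under 0.05. PLK4 was at 0.026, SE 0.0511 and CEP192, which recruits it, at -0.00013, SE 0.0417 in the authors' deposited table. Pericentriolar and gamma-tubulin genes gave 0 of 23, with 3 at an unadjusted p under 0.05, and the 9 mitotic surveillance genes gave 0 by either measure. TP53BP1 was at -0.091, SE 0.0549, USP28 at -0.068, SE 0.0567 and MDM2 at -0.031, SE 0.0496 in the authors' deposited table. PEX5, the peroxisomal import receptor gene whose protein TRIM37 is known to ubiquitinate, was at -0.071, SE 0.0576 in the authors' deposited table. Over all measured genes 10.1% had an unadjusted p under 0.05.

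Proliferation genes and p53 targets gave no call either, but some of their members had the Status Outlier and could not be called. S phase genes had 0 of 44 called and 1 at an unadjusted p under 0.05, and G2 and mitosis genes 0 of 37 and 1. The G2 and mitosis list ran from -0.07 to 0.074 in clone 4, while clone 5 called 7 of 38 up, against 0.795% of all its genes. Of the 37 measured in both, 0 differed between clones at an adjusted p under 0.05, but 19 (51.4%) did at an unadjusted p under 0.05, all lower in clone 4, against 5.75% of all genes. Of 34 p53 targets 0 were called, with 5 at an unadjusted p under 0.05, and 27 lay below 0 with a median of -0.058. The Outlier members were CDC20, MKI67 and CENPF of the mitosis list, CDKN1A, ZMAT3 and TNFRSF10D of the p53 targets and CDKN1A, CDKN2A and CDKN2B of the CDK inhibitors. CDKN2A, at 0.32 in the authors' deposited table, would have passed had it been adjusted with the rest. Cyclin and CDK inhibitor genes (13), peroxisome genes (34), proteasome genes (31), cholesterol genes (28), Polycomb genes (32), BCL2 family genes (24) and 38 other TRIM genes had 0 calls. At an unadjusted p under 0.05 these lists had 0, 4, 2, 2, 3, 3 and 5 members. Recomputing the q from the authors' fold change and SE gave 0 calls for all of these lists as well.

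Several lists of basic cell machinery gave 1 call each and the NRF2 list gave 2. Over all genes 0.716% were called up and 1.23% down, and a single call says little of its list. RPS15 at 0.17 was the call of 67 cytosolic ribosomal protein genes (1.49%) and MRPS6 at -0.14 that of 70 mitochondrial ones (1.43%) in the authors' deposited table. UQCRFS1 at 0.13 was that of 63 oxidative phosphorylation genes (1.59%) in the authors' deposited table. All 3 calls were lost under the rescaled statistics (adjusted p = 0.108, 0.109 and 0.0781). HSP90AA1 at -0.16 was the call of 29 heat shock genes (3.45%) in the authors' deposited table. IFITM3, an antiviral membrane protein gene, was the call of 32 interferon-stimulated genes (3.1%) at 0.23, SE 0.0575 in the authors' deposited table. The NRF2 list had 2 falls of 27 (7.41%), the quinone reductase gene NQO1 and the autophagy receptor gene SQSTM1, both at -0.17 in the authors' deposited table.

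Called genes were next placed in chromosomal order, with RefSeq gene order taken by symbol. Among the 11928 measured genes placed in RefSeq order 12 pairs of neighbours were both called, and they held 23 genes, 7 pairs of the same sign and 5 of opposite sign. Of all measured genes 1.95% were called. The number of pairs that this share alone would give was not computed, so the pairs are descriptions. On chromosome 11 PCNXL3 (0.62) lay next to SIPA1 (-0.61) in the authors' deposited table, an opposed pair of nearly equal size. In clone 5 the 2 genes were at 0.0036 and -0.052 per the authors' deposited table, and both differed between the clones (adjusted p = 5.85e-11 and 0.00142). EHBP1L1, 2 measured genes to the other side of PCNXL3, was called at -0.21, SE 0.0587 in the authors' deposited table, and MAP3K11 between them was at -0.064 and not called. EHBP1L1 lost its call under the rescaled statistics (adjusted p = 0.0657).

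Some neighbours were called in both clones. On chromosome 16 CENPT (0.51), THAP11 (-0.23) and NUTF2 (0.52) stood in a row in the authors' deposited table, and in clone 5 they were at 0.52, -0.57 and 0.46. On chromosome 21 BTG3 (0.22) lay beside C21orf91 (1.26) in the authors' deposited table, against 0.24 and 1.12 in clone 5. Pairs of falls called in both clones were TM4SF18 (-0.38) and TM4SF1 (-0.18), SEMA3A and SEMA3D, and S1PR3 (-0.31) and SHC3 (-0.16) in the authors' deposited table for clone 4. Their clone 5 values were -0.39 and -0.12, -0.14 and -0.48, and -0.35 and -0.14 per the authors' deposited table. CDH6 fell in both clones, while its neighbour CDH10 was at -0.13 in clone 5 in the authors' deposited table and was not called there. MRPS6 (-0.14) and SLC5A3 (-0.23) fell in clone 4 but lay at -0.0066 and 0.013 in clone 5, uncalled, per the authors' deposited tables. PLD1 (-0.33), beside TNIK, was at -0.018 in clone 5 and not called, by the authors' deposited tables. SHC3, like SEMA3D, CDH10 and MRPS6, lost its clone 4 call under the rescaled statistics (adjusted p = 0.0928). TRIM37 itself had no called neighbours on chromosome 17. SKA2, the measured gene next to it, was at 0.086, SE 0.0331 and PPM1E on the other side at -0.0031, SE 0.143 in the authors' deposited table, and of 23 measured genes around it 0 were called, with 3 at an unadjusted p under 0.05.

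**Figure D4:**
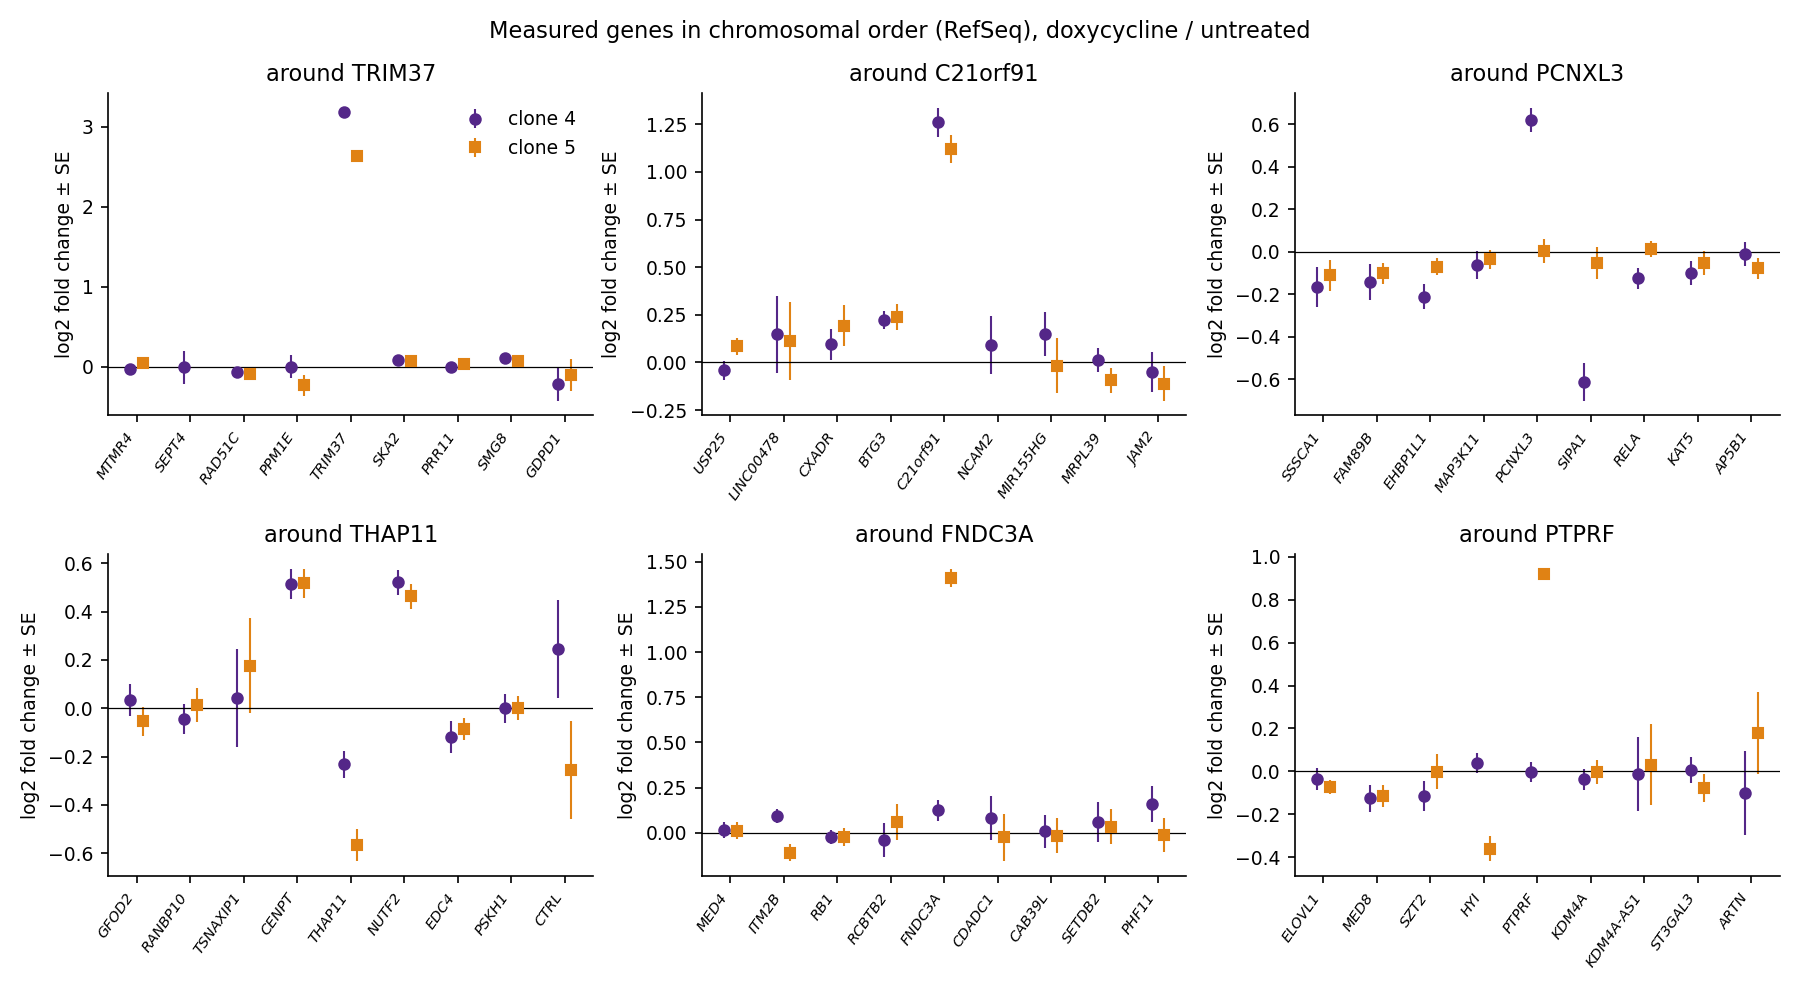
Log2 fold change ± SE (vertical axes) of measured genes in RefSeq order, 4 on each side of 6 genes, in clone 4 (purple circles) and clone 5 (orange squares, where measured). PCNXL3, SIPA1 and EHBP1L1 are called in clone 4 alone, and FNDC3A, PTPRF and its neighbour HYI in clone 5 alone. TRIM37, CENPT, THAP11, NUTF2, C21orf91 and BTG3 are called in both.

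The called genes of clone 4 were compared with the same treatment of clone 5, another clone with its own untreated libraries. Clone 5 raised TRIM37 less, by 2.64, SE 0.0419 in the authors' deposited table, and called 362 of 12195 genes (2.97%), 97 up (0.795%) and 265 down (2.17%). Of the 237 genes called in clone 4, 229 were measured in clone 5 and 201 of these (87.8%) had the same sign there, against 56.3% of all 11778 genes measured in both. Called rises were shared by 29 genes, 33.3% of those of clone 4 and 29.9% of those of clone 5. Called falls were shared by 77 genes, 51.3% and 29.1%. Opposite calls were made for 2 genes, the keratin gene KRT80 (0.12 and -0.092) and the calcium pump gene ATP2B4 (-0.15 and 0.14) in the authors' deposited tables, and the clone 4 call of ATP2B4 was lost under the rescaled statistics (adjusted p = 0.0642). Across the 11778 genes Pearson's r was 0.305 and Spearman's rho 0.187, a description over genes that are not independent, and r was 0.260 without TRIM37.

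A test of the difference itself found 26 of the 11778 genes (0.221%) with a response that differed between the clones. The median of the called falls of clone 4 was -0.22 in clone 4 and -0.14 in clone 5 over the 147 measured in both, and that of the rises 0.22 and 0.096 over 82. These genes were chosen by their clone 4 call, which favours larger values in that clone, so the medians do not compare response sizes. TRIM37 rose more in clone 4, by 0.55 (adjusted p = 6.07e-16). The largest negative differences were of FNDC3A (0.12 and 1.41) and the receptor phosphatase gene PTPRF (-0.0024 and 0.92) in the authors' deposited tables, both raised in clone 5 and not called in clone 4. HYI, the measured gene next to PTPRF, was at 0.039 in clone 4 and -0.36 in clone 5 in the authors' deposited tables (adjusted p = 0.000204). PTPRF and HYI thus formed an opposed pair in clone 5 alone. EFNB2 fell in clone 4 and was at 0.026 in clone 5 in the authors' deposited tables (adjusted p = 0.000159). CTGF and CYR61, matrix proteins and known YAP targets, were at -0.073 and 0.11 in clone 4, against -0.38 and -0.12 in clone 5 in the authors' deposited tables (adjusted p = 8.88e-05 and 0.0344). The immediate early and YAP lists had 9 of 27 and 9 of 25 members at an unadjusted p under 0.05 for the difference, against 5.75% of all genes, with 9 and 8 of them higher in clone 4 and 0 and 1 lower. KLF2, PCK2, FSTL3 and LAGE3 were called up in clone 4 and lay below 0 in clone 5, where they were not called. The clone 4 calls of KLF2 and FSTL3 were lost after correction for GC content (adjusted p = 0.207 and 0.218).

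**Figure D5:**
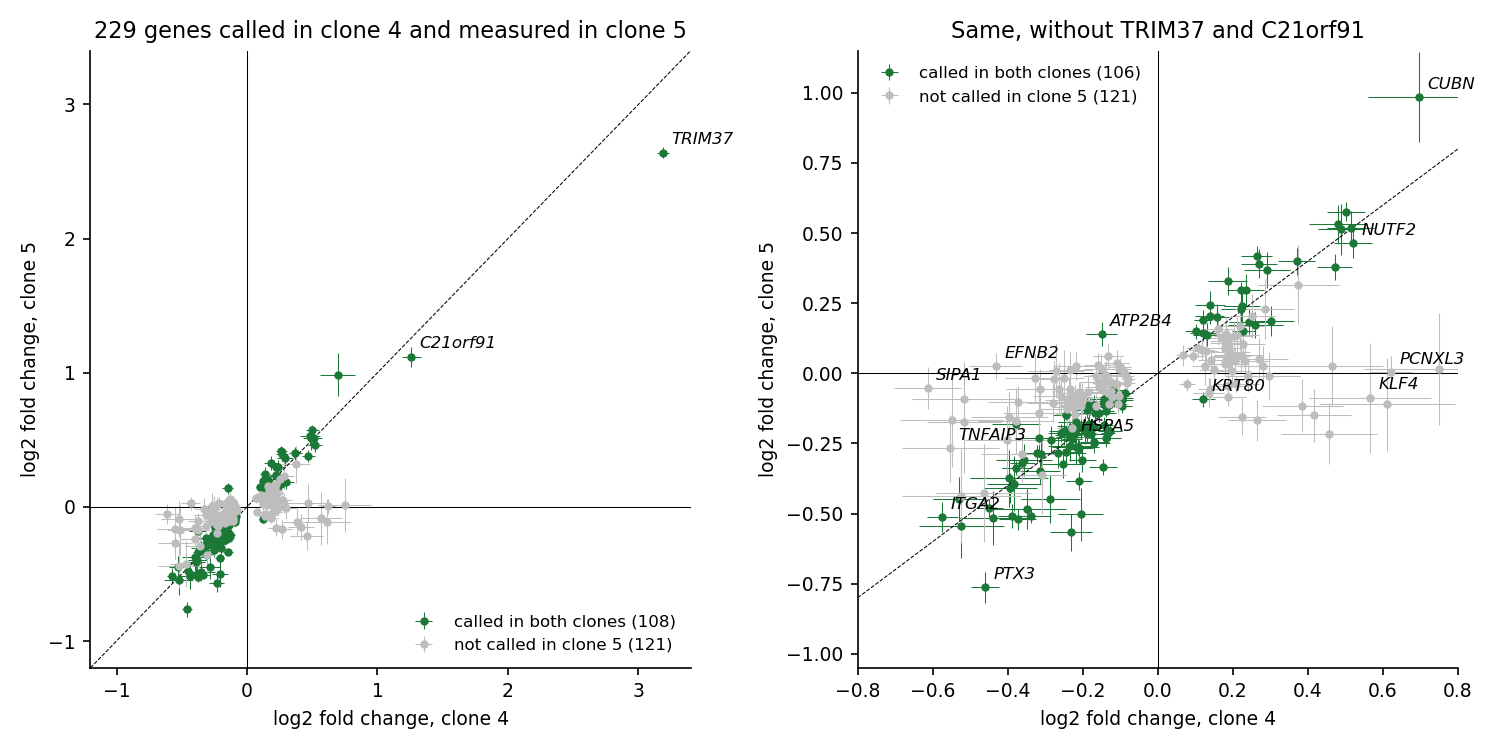
Log2 fold change ± SE in clone 5 (vertical axes) against clone 4 (horizontal axes) for the 229 genes called in clone 4 and measured in clone 5, green where clone 5 called them too. The left panel shows all and the right panel leaves out TRIM37 and C21orf91, and 201 of the 229 points lie in the quadrants of equal sign.

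The RPE1 knockout lowered TRIM37, with a log2 fold change of -1.95 in the authors' deposited table, and gives a contrast of the opposite kind. It called 53.6% of 13002 genes, 26.6% up and 26.9% down. Of the 84 called rises of clone 4 measured there, 26 were called up and 39 down (31.0% and 46.4%). Of the 148 called falls, 75 were called up and 54 down (50.7% and 36.5%). ITGA2, which fell in clone 4, was at 1.25 in the knockout in the authors' deposited table, and ASNS, which rose, was at -0.83. C21orf91 was at -0.074 there in the authors' deposited table and was not called. PLA2G4A fell in clone 4 and was at -1.06 in the knockout in the authors' deposited table, and CUBN rose in clone 4 and was at 0.92. The integrated stress list had 12 called rises and 20 called falls of 40 in the knockout, and the reticulum list 5 and 9 of 32. With more than 1 in 2 genes called in the knockout, these counts are to be read against its shares over all genes.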

How the data were processed

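RNA sequencing libraries were compared by the authors, who deposited 1 table per contrast. STAR and DESeq2 were used, per the submitters' processing notes, with no versions given. Build, annotation, strandedness and read counting rules were not given in the sources used here. Reads of overlapping or antisense genes may therefore be mixed. Per the file headers, the authors' tables give a Status, a mean count signal whose scaling is not stated, the log2 fold change with its SE, and a q value (an adjusted p-value). The deposited q under 0.05 was the call. The Status Low goes with mean counts up to 10, and Low and Outlier genes have a q of 1. The column names map to groups and not to libraries, so no count model was fitted.

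The clones were compared per gene by subtracting their log2 fold changes and dividing by the combined SE, the square root of the sum of both squared SEs, with a two-sided normal p and Benjamini-Hochberg adjustment over 11778 genes. Unadjusted p-values were computed from the deposited log2 fold change and SE in the same way. Implied group means assume equal weights and unmoderated fold changes.

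The members and gene lists were chosen with earlier results of these data known. The genes named are TRIM37, the 15 largest called rises and falls with a mean count of at least 50, the 5 highest mean counts, and up to 6 called members per list with the smallest q or, with fewer than 2 called, the 2 highest mean counts. To these are added PLK4, CEP192, TP53BP1, USP28, PEX5, the neighbours of TRIM37, the 6 largest differences between clones in each direction and genes at the count limit. Other genes were named after their values were seen, among them the further called genes of the cell surface, secretion, metabolism and signalling, the pairs of neighbours, OVCA2, TMEM121, RRAD, CHAC1, CTGF and CYR61, the list members with the Status Outlier and the genes set beside the knockout. A few results on single genes that these rules name are not reported here.

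Gene order and promoters came from NCBI RefSeq on GRCh38.p14 by symbol, which matched 11928 of 12153 genes. For GC content the longest transcript per symbol in GENCODE v29 was used. Python 3.11.15, pandas 2.3.3, numpy 2.4.6, scipy 1.17.1 and matplotlib 3.10.9 were used. The alternatives were other thresholds, mean count filters, keeping Outlier genes, a recomputed q, statistics divided by their central spread (the rescaled null) and removal of a GC trend in 20 bins.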

Additional observations from a re-analysis of the deposited data

Results flagged for a closer look

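The response to doxycycline differed between clone 4 and clone 5 for 26 genes, by a test of the difference of their log2 fold changes. Values are the log2 fold change in clone 4 minus that in clone 5, computed from the authors' deposited tables. The response was lower in clone 4 for FNDC3A (-1.29), PTPRF (-0.92), SIPA1 (-0.56), EFNB2 (-0.46), TNC (-0.33), ATP2B4 (-0.29) and ENO2 (-0.19). It was higher in clone 4 for NTN4 (0.18), SERPINE2 (0.19), AMIGO2 (0.20), KRT80 (0.21), ZYX (0.22), CYR61 (0.23), LBH (0.26), FSTL3 (0.27), PTX3 (0.30) and CTGF (0.31). Further genes that were higher in clone 4 were FST (0.31), PCK2 (0.38), HYI (0.40), KLF2 (0.43), TRIM37 (0.55), LAGE3 (0.57), SCARF2 (0.59) and PCNXL3 (0.62).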

How the results depend on the processing

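The other thresholds, count filters, recomputed q, kept Outlier genes and rescaled null cannot change a sign, and with the GC trend removed all of the 236 called genes with a GC value kept theirs. The 237 calls (87 up, 150 down) became 141 (50 up, 91 down) at a q under 0.01 and 8 (6 up, 2 down) with a minimum 1.5-fold change. With the null rescaled, for a central spread of 1.10, 160 genes were called, 53 of them up. At a q under 0.01 the called list members went from 56 to 33, and the falls to 2 each for the reticulum, integrin and ERK feedback lists. The rescaled null also left 2 falls in the integrin list and 2 in the ERK feedback list. The clone difference gave 17 genes at an adjusted p under 0.01. The other alternatives for these counts stayed within 1.5 times the reported value. Of the called genes 77 lost their call under the rescaled null, 20 with the GC trend removed, among them KLF2, FSTL3, PCK2, GRIN2A, CDH10, NKX2-5, RPS15, MRPS6 and TMEM121, and 1, ITGA10, with the recomputed q. The rescaled null took the calls of KLF2, KLF4, EGR3, DUSP6, DUSP10, CEBPG, HSP90B1 and ITGA5 among them.

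No paired analysis was possible because the files used here hold no value per library, and leaving out single replicates was not run for the same reason. The depth is unknown, the 6 libraries of 1 clone limit the precision, and few calls fell on genes with low counts, as 3 of 1340 measured genes with mean counts between 10 and 50 passed.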

Other observations

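Genes with the Status Outlier were left out of all calls, and 14 of the 296 would have passed had their fold changes been adjusted with the rest. Of these 12 were lower and 2 higher with doxycycline. PAPPA, which encodes a protease that cleaves insulin-like growth factor binding proteins, was at -0.68, SE 0.0993, and TXNIP, a glucose-responsive inhibitor of thioredoxin, at -0.57, SE 0.0837 in the authors' deposited table. The circadian repressor genes BHLHE40 and BHLHE41 were at -0.42, SE 0.0861 and -0.40, SE 0.0919 per the authors' deposited table. The matrix proteoglycan gene VCAN, with a mean count of 28200, was at -0.37, SE 0.103, and IL1B, which encodes a cytokine, stood at -0.38, SE 0.105 in the authors' deposited table. CDKN2A, whose locus encodes a CDK inhibitor and a p53 activator, was at 0.32, SE 0.0979 and C4orf48 at 0.59, SE 0.169 in the authors' deposited table. SLC14A1, CLSTN2, PMEPA1, THSD4, PLXNA4 and LTBP3 completed the falls. These genes were picked after their values were seen, and which library set the Status was not tested.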
